A study of Homo sapiens with 4 samples.

Results

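The RNAs described here are the long intergenic non-coding RNAs that carry only a placeholder name, LINC and a number. They were taken as every row of the deposited count table with such a symbol and 40 or more counts summed over the 4 libraries. Of 371 rows with such a symbol, 153 reached that sum, out of 17791 genes in the table, and 218 stayed below it, 16 of them at 0 in every library. Members were thus chosen by their summed count, so their abundance is given only as a description.

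Long non-coding RNAs are transcribed and often spliced like messenger RNAs, but are not translated into a known protein. Some act on the gene next to them, some act as scaffolds for proteins in the nucleus or cytoplasm, and for many no function is known. They are usually less abundant and more restricted to 1 cell type than messenger RNAs, and in tumours of the prostate and other organs several are used as markers or have been tied to invasion and growth.

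The tissues were made from PC-3, a human prostate cancer line from a bone metastasis, and BJ-5ta, a line of telomerase-immortalised human foreskin fibroblasts. Engineered prostate cancer tissues (EPCaTs) held 5 PC-3 cells for each BJ-5ta cell in a hydrogel of poly(ethylene glycol) joined to fibrinogen (PF), and RNA was taken on day 15. The 3 kinds were PF EPCaT with no extra crosslinker, PF+2%PEGDA EPCaT and PF+3%PEGDA EPCaT, where excess poly(ethylene glycol) diacrylate (PEGDA) tunes the stiffness of the gel. They were set against a 2D coculture of both lines, whose labels give neither a day nor a cell ratio. Each group had 1 library. The EPCaTs are also called gels, and 3 values for the gels are those with no, 2% and 3% PEGDA. RNA for each EPCaT library was pooled from more than 2 tissues. With 1 library per group, variation between replicates could not be estimated, so differences between libraries are given without a p-value.

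The libraries held between 13760301 (PF+3%PEGDA) and 15687894 (PF) counts, with 15641804 in 2D. Levels are CPM, counts per 1000000 of the scaled library size, and 1 count was worth between 0.0599 and 0.0731 CPM. A gene was called higher or lower between 2 libraries when it differed by 2-fold or more and the exact 95% interval of the ratio, which covers counting error only, excluded equality. The same rule was run over all 14625 genes with 40 or more summed counts, and the share called there is the background. Of 24 listed fibroblast markers 23 were in the table and 22 were tested. Their levels, summed over the 23, were 3323, 3948 and 3334 CPM in the EPCaTs with no, 2% and 3% PEGDA, against 10401 CPM in 2D, and 13 of those tested were called lower in all 3 EPCaTs and 0 higher. For 18 epithelial markers the sums were 6570, 7349 and 6896 CPM in the EPCaTs, against 4829 CPM in 2D, with 4 called higher in all 3 EPCaTs and 0 lower. CTNNA1, which PC-3 cells are known to have lost, was at 5.39, 6.18 and 8.26 CPM in the gels, against 33.3 CPM in 2D. Of 14 listed endothelial and blood markers, cells of types that were not seeded, 9 were in the table and 7 were tested. These markers summed to 313, 362 and 427 CPM in the gels, against 160.1 CPM in 2D, with 4 called higher in all 3 EPCaTs and 0 lower. KDR was at 154, 184 and 226 CPM in the gels, against 22.1 CPM in 2D. PECAM1 was at 65.4, 82.2 and 86.2 CPM in the gels, against 7.19 CPM in 2D. CD68 was called lower in PF and PF+2%PEGDA, and the endothelial VWF was at most 0.180 CPM in an EPCaT and at 0 in 2D. In bulk RNA, fewer cells of a type and less RNA per cell cannot be told apart, and the part of these marker shifts in the results below was not tested.

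As a class the members were scarce. Their median summed count was 171, against 1645 for all genes tested, and 81 of the 153 had 40 to 199 counts, 52 had 200 or more but under 1000 and 20 had 1000 or more. Of all genes tested, 61.4% had 1000 or more. The mean level over the 4 libraries ran between 0.656 and 226 CPM with a median of 2.79 CPM; 32 members averaged over 10 CPM and 27 averaged under 1 CPM. In all, the members took 0.170%, 0.171% and 0.175% of the counts in the EPCaTs with no, 2% and 3% PEGDA and 0.131% in 2D. The 4 most abundant RNAs in a library made up 34.0%, 43.3% and 47.6% of the members' counts in the gels, against 31.7% in 2D, so a few RNAs made up much of the sum. A member just inside the threshold, LINC00623, had 8, 14 and 12 counts in the EPCaTs with no, 2% and 3% PEGDA and 6 in 2D, and LINC00852 and LINC01023 summed to 41. LINC01204, LINC01534 and LINC01736 stayed outside with 39 counts each. Since the sum can be reached through 1 library alone, members near the threshold may include RNAs that had to differ to enter.

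The class name was checked against the annotation. All 153 symbols were found in RefSeq on GRCh38.p14, where 151 are typed as long non-coding RNA. LINC00634 is now the protein-coding gene SMIM45 and LINC00643 the pseudogene SERTAD4BP. In all, 16 have since been renamed, 6 of them as divergent transcripts of a neighbour and 2 as antisense RNAs. The annotated bounds of 20 members overlapped those of a protein-coding gene, 28 lay within 5 kb of one, 57 lay between 5 and 50 kb away, and 48 lay over 50 kb away, with a median distance of 15601 bp. Of the 136 members matched in GENCODE 29, 61 had an exon overlapping an exon of another gene. Not every member is therefore intergenic by position. The kit does not mark strand, so reads from overlapping genes cannot be told apart. In 12 of these 136, at least 50% of the 50-base stretches of the exons also occur in the exons of another gene, and values of those members are uncertain. They include LINC00261, LINC01106, LINC01123 and LINC02085.

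The most abundant member was LINC02582, on chr18:73324941-73349889, an RNA that in breast cancer cells has been placed downstream of the miR-200 family. It stood at 181, 243 and 327 CPM in the EPCaTs with no, 2% and 3% PEGDA and 153 CPM in 2D. The level was highest in the gel with most PEGDA, 2.14-fold above 2D (95% counting interval 2.03 to 2.25), and only that EPCaT passed the 2-fold rule. LINC00261, next to FOXA2 and known from endoderm differentiation, came second at 159.7, 262 and 293 CPM in the gels, against 57.5 CPM in 2D. LINC00674 followed at 118, 145 and 147 CPM in the gels, against 112 CPM in 2D, differing by less than 2-fold everywhere. LINC00857, reported to promote growth of lung and bladder cancer cells, was the only one of the 12 most abundant members that was called lower in all 3 EPCaTs.

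Among the rest of the 12, the PF EPCaT stood apart for LINC01000, with 84.8 CPM there, 37.5 and 43.4 CPM in the gels with 2% and 3% PEGDA and 24.8 CPM in 2D. LINC00673, an RNA linked to pancreatic cancer risk, was at 29.01, 46.1 and 41.9 CPM in the gels, against 19.4 CPM in 2D, and was called higher in the gels with 2% and 3% PEGDA. LINC01278 was at 26.7, 30.6 and 28.96 CPM in the gels, against 43.2 CPM in 2D and was not called. LINC02210 and LINC01351, the divergent transcript of BRINP3, were higher in each EPCaT than in 2D by less than 2-fold, and LINC01184, the divergent transcript of SLC12A2, varied by 1.17-fold over all 4 libraries. Compared per kilobase of exon, which 136 members allow, LINC00674 led with 178 CPM per kb, ahead of LINC02582 with 99.2, LINC01351 with 56.0, LINC00261 with 34.7 and LINC00857 with 28.6 CPM per kb. No other member exceeded 10 CPM per kb, and the median was 1.05 CPM per kb.

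**Figure D1:**
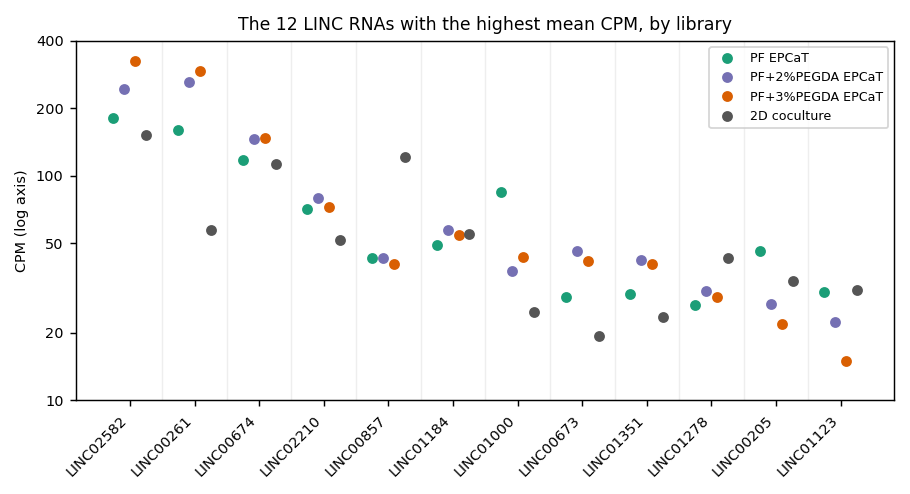
CPM on a log axis of the 12 LINC RNAs with the highest mean level, 1 point for each library, with the 3 EPCaTs left of the 2D coculture. LINC00261 sits between 159.7 and 293 CPM in the gels, against 57.5 CPM in 2D, while LINC00857 sits between 40.6 and 43.2 CPM in the gels, against 122 CPM in 2D.

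Each EPCaT was first set against the 2D coculture, the comparison of growth in a gel with growth on a flat surface. In the PF EPCaT 41 of the 153 members were called higher and 22 lower, against backgrounds of 15.8% and 11.9% of all genes tested. In PF+2%PEGDA 28 were called higher (background 12.1%) and 17 lower (9.17%). In PF+3%PEGDA 25 were called higher (11.6%) and 24 lower (10.2%). The 3 comparisons share the 2D library and are not independent. The median log2 ratio of the members was 0.24, 0.18 and 0.08 in the 3 EPCaTs, against medians between -0.01 and 0.01 for all genes. These medians also differed with abundance: with 40 to 199 counts they were 0.24 for members and 0.26 for all genes in PF, 0.21 and 0.10 in PF+2%PEGDA, and 0.04 and 0.05 in PF+3%PEGDA.

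Scarce genes passed the 2-fold rule more often, so the shares were also taken within ranges of summed count. Among genes with 40 to 199 summed counts, the PF EPCaT was called higher for 30.9% of the members and 29.6% of all genes in that range, and lower for 16.0% of members and 20.1% of genes. With 200 or more but under 1000 counts the shares called higher in PF were 23.1% of members and 22.5% of genes. In these ranges the members were called higher in PF about as often as other genes of like abundance, so the larger share over the whole list is no result about the class. Of the 20 members with 1000 or more counts 4 were called higher, which is 20.0% against 9.74% of genes in that range.

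**Figure D2:**
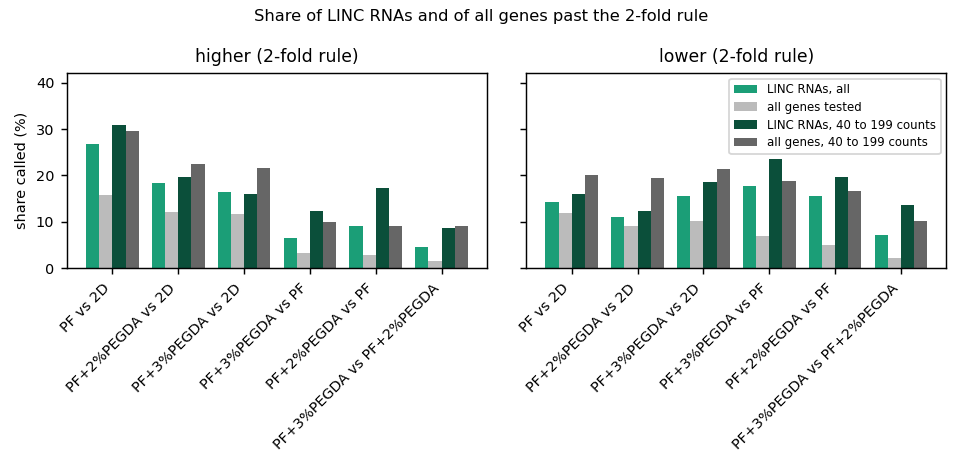
Share (percent) of LINC RNAs and of all genes tested that were called higher (left) and lower (right) in each of 6 comparisons, over all members and among genes with 40 to 199 summed counts. Over the whole list the members' bars exceed the grey bars of all genes, while among genes of 40 to 199 counts neither is larger throughout, with 30.9% of members and 29.6% of genes for PF against 2D, higher, and 17.3% and 9.11% for PF+2%PEGDA against PF, higher.

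Called in the same direction in all 3 EPCaTs against 2D were 17 members higher and 7 lower, against backgrounds of 7.74% and 5.83% of all genes tested. Among genes with 40 to 199 counts, 11.1% of members and 12.3% of genes were higher in all 3, and 3.70% of members and 10.8% of genes were lower. In that range the share lower in all 3 was smaller for the members, on 3 RNAs. With only the other EPCaTs required, 11 members were called lower without PF and 12 without PF+2%PEGDA. A rule with fewer comparisons can only keep or raise the count, so this rise was fixed in advance.

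The most abundant RNA of the higher group was LINC00261 (chr20:22560553-22578642, minus strand). It was 2.78-fold higher in the PF EPCaT than in 2D (2.57 to 3.01), 4.55-fold in PF+2%PEGDA (4.22 to 4.91) and 5.09-fold in PF+3%PEGDA (4.72 to 5.49). In GENCODE 29 an overlapping gene, AL121722.1, covers 86.1% of its exons, so the reads may belong to either. LINC01559, reported in gastric and pancreatic cancer cells, had the highest bound. Its counts were 171, 95 and 111 in the EPCaTs with no, 2% and 3% PEGDA and 8 in 2D, which gave ratios of 18.7 (9.29 to 44.0), 11.2 (5.44 to 26.6) and 14.8 (7.27 to 35.2). LINC00265 was at 22.3, 15.4 and 13.5 CPM in the gels, against 4.11 CPM in 2D, between 3.29- and 5.43-fold higher. By the rule for this group, every EPCaT value of these 3 RNAs lay above the 2D value.

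In 3 members 2D had 0 counts, and no member was at 0 in an EPCaT. LINC00624, in the BCL9 and CHD1L region of chromosome 1, had 43, 20 and 26 counts in the EPCaTs with no, 2% and 3% PEGDA. Against a floor of 3 counts in 2D these are 12.5-, 6.27- and 9.26-fold higher. Ratios to the floor leave out the counting error of the EPCaT, and the lower ends of the counting intervals were 9.77-, 4.64- and 7.01-fold. LINC00482 had 74, 13 and 16 counts, 21.6-, 4.07- and 5.70-fold above the floor, with lower interval ends of 17.1-, 2.86- and 4.12-fold. LINC02683 had 6, 17 and 19 counts, 1.75-, 5.33- and 6.77-fold above the floor, so the PF EPCaT has the smallest ratio. Its smallest interval bound over the EPCaTs was a log2 ratio of 0.04, close to equality. LINC00885 had 17, 21 and 19 counts in the gels, against 1 in 2D, with ratios of 14.9 to 20.3 whose intervals reached down to 2.33.

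LINC00342 and LINC01089 belonged to the same group and were highest in PF. LINC00342 was at 23.9 CPM in the PF EPCaT, 4.50 and 4.83 CPM with 2% and 3% PEGDA, and 1.37 CPM in 2D, with 28.45% of its 50-base stretches shared with other genes. LINC01089, known in mammary cells as an RNA that restrains migration and is repressed by EGF, was at 11.9, 5.15 and 5.41 CPM in the gels, against 2.26 CPM in 2D, and 51.3% of its exons overlap other genes. LINC01833, LINC00685, LINC02724, LINC01588, LINC01721, LINC01213, LINC00324 and LINC00898 completed the group. Of these LINC01588 was the most abundant, with 7.13, 8.24 and 5.56 CPM in the gels, against 2.67 CPM in 2D.

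Among the 7 members lower in all 3 EPCaTs, LINC00857 (chr10:80207710-80219657, plus strand) was the most abundant. It stood at 43.2, 43.1 and 40.6 CPM in the EPCaTs with no, 2% and 3% PEGDA and 122 CPM in 2D, which is 2.81-fold (2.58 to 3.07), 2.82-fold (2.58 to 3.09) and 3.00-fold (2.72 to 3.30) lower. The EPCaT values were nearly equal to each other. LINC02009, in the chemokine receptor region of chromosome 3, was at 1.44, 1.93 and 1.54 CPM in the gels, against 7.39 CPM in 2D. LINC00941, which restrains differentiation of human epidermis and is tied to spread of several carcinomas, was at 3.30, 4.12 and 3.36 CPM in the gels, against 13.1 CPM in 2D, between 3.19- and 3.99-fold lower. For LINC00680, LINC00648, LINC00659 and LINC01356 the ratios ran between 2.13- and 4.41-fold lower. The fibroblast markers were lower in the EPCaTs too, with the sums given above, and which of the 2 lines made these RNAs was not measured.

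**Figure D3:**
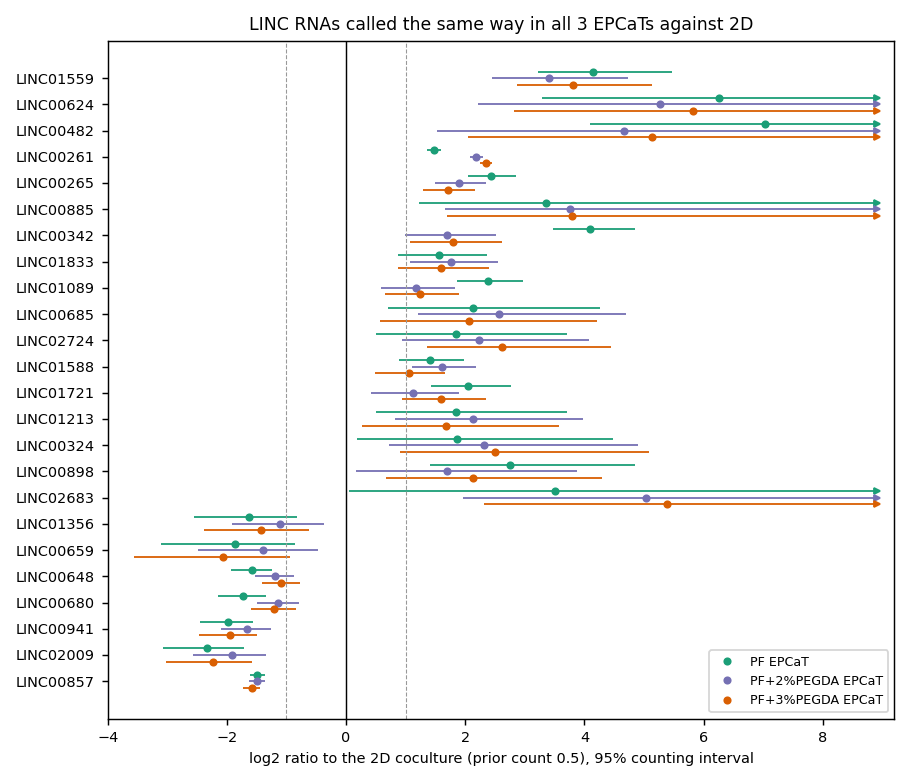
Log2 ratio of each EPCaT to the 2D coculture, with its 95% counting interval as a line, for the 17 LINC RNAs called higher and the 7 called lower in all 3 EPCaTs. Dashed lines mark 2-fold, arrows mark intervals that run past the axis, and points of LINC00624, LINC00482 and LINC02683, with 0 counts in 2D, depend on the prior count of 0.5. Intervals are narrowest for LINC00261 and LINC00857, the most abundant of the 2 groups.

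The promoters of 3 RNAs of each group are printed, those with the largest interval bounds against 2D among the members that have a promoter in the RefSeq table. Each runs over 300 bases, 250 before and 50 after the annotated start, on GRCh38.p14, 5′ to 3′ on the gene's strand. Capitals mark ACGTG and GCGTG, cores of hypoxia response elements, and TGACTCA, an AP-1 site, on either strand. The higher group is LINC00261 (chr20:22578593-22578892, minus strand), LINC00482 (chr17:81309199-81309498, minus) and LINC00265 (chr7:39733318-39733617, plus). The lower group is LINC00857 (chr10:80207460-80207759, plus), LINC02009 (chr3:46423618-46423917, minus) and LINC00941 (chr12:30795431-30795730, plus).
LINC00261: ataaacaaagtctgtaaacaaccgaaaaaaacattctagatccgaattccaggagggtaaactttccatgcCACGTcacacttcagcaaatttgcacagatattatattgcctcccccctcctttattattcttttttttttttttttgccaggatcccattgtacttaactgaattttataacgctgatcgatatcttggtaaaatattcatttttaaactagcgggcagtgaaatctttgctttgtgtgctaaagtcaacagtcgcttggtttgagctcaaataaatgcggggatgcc
LINC00482: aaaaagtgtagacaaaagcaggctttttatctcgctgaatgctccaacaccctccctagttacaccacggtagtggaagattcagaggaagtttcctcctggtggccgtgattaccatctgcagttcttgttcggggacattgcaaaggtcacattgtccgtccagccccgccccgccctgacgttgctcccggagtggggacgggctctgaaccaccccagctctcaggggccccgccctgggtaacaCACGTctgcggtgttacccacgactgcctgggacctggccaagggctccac
LINC00265: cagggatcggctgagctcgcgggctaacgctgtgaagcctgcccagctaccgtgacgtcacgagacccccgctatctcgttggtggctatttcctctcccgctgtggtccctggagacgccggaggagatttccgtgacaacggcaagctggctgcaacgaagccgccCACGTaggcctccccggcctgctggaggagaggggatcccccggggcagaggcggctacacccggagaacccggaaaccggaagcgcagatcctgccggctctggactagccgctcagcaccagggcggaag
LINC00857: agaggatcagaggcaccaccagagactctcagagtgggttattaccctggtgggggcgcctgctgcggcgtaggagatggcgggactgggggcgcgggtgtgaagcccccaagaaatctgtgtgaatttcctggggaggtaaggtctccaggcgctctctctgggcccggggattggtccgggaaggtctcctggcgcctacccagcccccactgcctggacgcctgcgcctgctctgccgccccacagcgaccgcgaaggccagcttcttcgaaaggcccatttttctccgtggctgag
LINC02009: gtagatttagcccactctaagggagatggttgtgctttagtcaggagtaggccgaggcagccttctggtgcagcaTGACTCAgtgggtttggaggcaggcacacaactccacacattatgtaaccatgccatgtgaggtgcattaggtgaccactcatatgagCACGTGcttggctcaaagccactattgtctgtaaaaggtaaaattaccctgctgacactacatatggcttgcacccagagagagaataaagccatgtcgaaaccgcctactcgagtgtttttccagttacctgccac
LINC00941: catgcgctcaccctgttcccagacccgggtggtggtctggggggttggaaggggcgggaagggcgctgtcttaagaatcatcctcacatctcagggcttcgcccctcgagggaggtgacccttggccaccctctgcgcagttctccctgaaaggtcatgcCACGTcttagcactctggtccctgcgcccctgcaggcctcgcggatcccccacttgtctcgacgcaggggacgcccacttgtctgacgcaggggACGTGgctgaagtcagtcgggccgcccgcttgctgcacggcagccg
ACGTG occurred once in each of the 3 promoters of the higher group, in none of LINC00857, and in 2 places in those of LINC02009 and LINC00941, where the 2 in LINC02009 overlap. TGACTCA occurred in LINC02009 only, and GCGTG in none of the 6.

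RefSeq gave a promoter for 110 of the 153 members. Of these, 26.4% held ACGTG on either strand, against 21.6% of all 27305 promoters in the table, and 30.0% held GCGTG, against 36.3%. TATAAA, the TATA box, occurred in 10.9% of members' promoters and 12.0% of all, and CCAAT in 43.6% and 35.7%. TGACTCA occurred in 11 members' promoters, which is 10.0% against 4.92% of all. Of the RNAs higher in all 3 EPCaTs, 13 had a promoter and 4 held ACGTG; of those lower in all 3, 5 had one and 3 held it. ACGTG thus occurred in both groups, while GCGTG was in 3 of the 13 and 0 of the 5, and TGACTCA in 0 and 1. A match is a description of the sequence, not a bound site.

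The gels were then compared with each other, which addresses what added PEGDA does. Between PF+3%PEGDA and PF, 10 members were called higher and 27 lower, against backgrounds of 3.39% and 7.08%. Between PF+2%PEGDA and PF, 14 were called higher (background 2.81%) and 24 lower (5.11%). Between PF+3%PEGDA and PF+2%PEGDA, 7 were called higher (1.61%) and 11 lower (2.22%). In the range of 40 to 199 counts, PF+3%PEGDA against PF was called lower for 23.5% of members and 18.9% of genes, and higher for 12.3% and 9.91%. PF+2%PEGDA against PF was called higher for 17.3% of members and 9.11% of genes in that range, on 14 RNAs. Calls lower than PF thus outnumbered calls higher, in the members as in all genes.

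A group of 11 members was called higher in the PF EPCaT than in each of the other 3 libraries, against a background of 2.63%, and 4 were called lower than in each (0.991%). These counts were made after the values had been seen. By comparison 1 member was called higher and 1 lower in PF+2%PEGDA than in every other library (backgrounds 0.137% and 0.335%), and 1 higher and 2 lower in PF+3%PEGDA (0.226% and 0.615%). The 11 were LINC00342, LINC00431, LINC00482, LINC00653, LINC00893, LINC00894, LINC01004, LINC01089, LINC01144, LINC01311 and LINC01355. Some of them reached the sum of 40 counts only through PF, such as LINC00893 with 38 of 47 counts there and LINC00894 with 47 of 62. Such members had to be high in PF to enter, so the size of the group is only a description. Among genes with 40 to 199 counts, 9.88% of members and 7.33% of genes were called highest in PF by this rule. The share was 7.19% for all 153 members, 7.396% for 311 antisense RNAs and 9.16% for 273 genes whose symbols start with LINC- or LOC. It was 2.34% for all other genes tested, which were set apart by symbol alone and still include NEAT1 and MALAT1. Among smaller classes the share was 0 of 24 snoRNA host genes and 1 of 13 miRNA host genes. The classes were not matched for abundance, and among all genes with 1000 or more counts the share was 1.01%.

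The clearest of the 11 by level was LINC00342, 4.94-fold lower in PF+3%PEGDA than in PF (3.801 to 6.51) and 5.30-fold lower in PF+2%PEGDA (4.10 to 6.93). Its counts were 398 in the PF EPCaT, 70 and 66 with 2% and 3% PEGDA, and 20 in 2D. LINC01004, 23040 bp from the chromatin regulator gene KMT2E, was at 9.59, 3.67 and 2.78 CPM in the gels, against 1.51 CPM in 2D. LINC00894 and LINC00893, which RefSeq now names as divergent transcripts of EOLA2 and EOLA1 on chromosome X, had few counts outside PF. LINC00894 had 47, 5 and 3 counts in the gels with no, 2% and 3% PEGDA, against 7 in 2D, and LINC00893 had 38, 2 and 4, against 3 in 2D. Part of their sequence is shared with other genes, 22.9% of 50-base stretches for LINC00894 and 42.7% for LINC00893. The neighbours themselves were steadier, with EOLA2 at 21.7, 26.1 and 22.3 CPM in the gels, against 36.8 CPM in 2D, and EOLA1 at 38.0, 36.7 and 35.1 CPM in the gels, against 30.3 CPM in 2D. LINC01311 had 33 counts in PF, 4 in each of the other EPCaTs and 6 in 2D. NEAT1 and MALAT1, abundant nuclear RNAs that are not members, were also highest in PF: NEAT1 was at 1563, 267 and 251 CPM in the gels, against 196 CPM in 2D, and MALAT1 at 369, 47.3 and 82.1 CPM and 15.6 CPM in 2D. The part of these shifts in the members' values was not tested.

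The 4 members called lower in PF than in each other library were LINC01503, LINC01605, LINC01807 and LINC02482, and all had few counts there. LINC01503, known from squamous cell carcinoma as an RNA driven by TP63, had 3 counts in PF, 26 and 10 with 2% and 3% PEGDA, and 26 in 2D. LINC02482 had 16 in PF, 39 and 49 in the other gels and 45 in 2D, so PF+3%PEGDA was 3.74-fold higher than PF (2.09 to 7.04). LINC01605 had 9 counts in PF, 38 and 23 with 2% and 3% PEGDA, and 24 in 2D, and LINC01807 had 2, 12 and 12 in the gels, against 16 in 2D.

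A stricter rule for order with PEGDA required that PF+3%PEGDA was called against PF and that the counting interval of each step, PF+2%PEGDA against PF and PF+3%PEGDA against PF+2%PEGDA, excluded equality in the same direction. By that rule 5 members were called lower in order, against a background of 2.29% of all genes, and 0 higher, against 0.916%. More members were lower or higher at both steps by value alone, as were LINC00265 and LINC02582 above. LINC01547 (chr21:44933284-44939913, minus strand) was at 33.4, 22.3 and 14.0 CPM in the EPCaTs with no, 2% and 3% PEGDA and 9.65 CPM in 2D. LINC00205, transcribed away from POFUT2 on the same chromosome, was at 46.3, 26.8 and 21.9 CPM in the gels, against 34.2 CPM in 2D. LINC00643, now a pseudogene, was at 5.45, 3.41 and 1.39 CPM and at 0.890 CPM in 2D. LINC01106 was at 12.8, 5.60 and 3.15 CPM and at 8.15 CPM in 2D, and LINC01123 at 30.3, 22.5 and 14.9 CPM and at 31.2 CPM in 2D. These last lie in a duplicated region of chromosome 2, with 89.2% and 92.2% of their 50-base stretches found in other genes, so their counts may be shared with those genes.

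**Figure D4:**
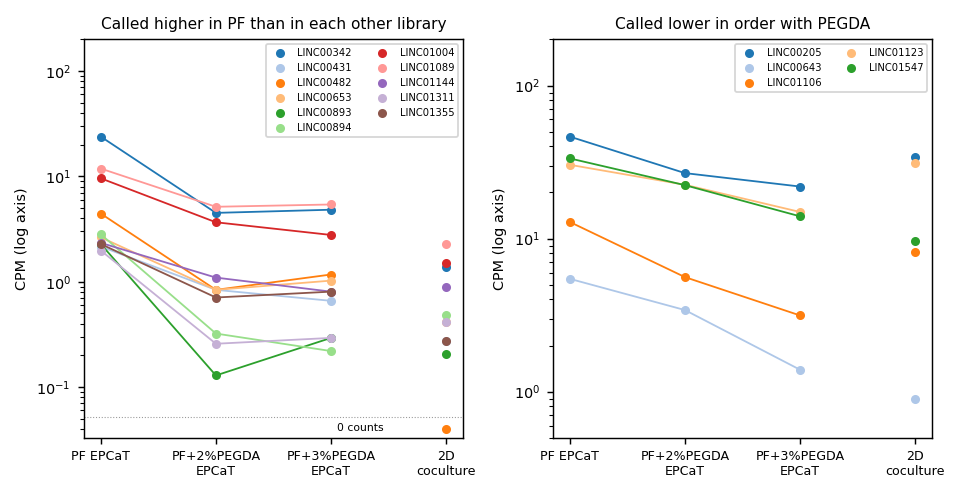
CPM on a log axis of the 11 LINC RNAs called higher in PF than in each other library (left) and of the 5 called lower in order with PEGDA (right), with lines joining the 3 EPCaTs in order of PEGDA and the 2D coculture at the far right. On the left most of the drop lies between PF and PF+2%PEGDA, as for LINC00342 at 23.9, 4.50 and 4.83 CPM. The rule that chose these 11 requires a drop of 2-fold or more there. The point under the dotted line is LINC00482 with 0 counts in 2D.

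Other single RNAs differed between the gels, and some of them were highest in PF or in 2D. LINC00632, the host transcript of the circular RNA CDR1as, had 9, 13 and 33 counts in the gels with no, 2% and 3% PEGDA and 11 in 2D, and was 4.47-fold higher in PF+3%PEGDA than in PF (2.09 to 10.6). LINC00632 was the only member called higher in PF+3%PEGDA than in every other library, and the circular RNA itself was not measured. With 33 of its 66 counts in PF+3%PEGDA, it reached the sum of 40 only through that library, so this call is only a description. LINC01550 had 4, 6 and 18 counts in the gels with no, 2% and 3% PEGDA and 13 in 2D. LINC00476, now named as antisense to ERCC6L2, was at 2.88, 4.70 and 1.39 CPM in the gels, against 2.88 CPM in 2D. LINC02085, known as an RNA induced by antiviral RIG-I signalling, had 32, 20 and 4 counts in the gels, against 19 in 2D, but 91.8% of its 50-base stretches are shared. These 2 were the members called lower in PF+3%PEGDA than in every other library. LINC01023 had 9, 21 and 3 counts in the gels, against 8 in 2D, highest in PF+2%PEGDA, and lies just inside the abundance threshold. LINC01239 had 23, 5 and 14 counts in the gels, against 33 in 2D, lowest in PF+2%PEGDA. LINC00504 had 24, 11 and 2 counts in the gels with no, 2% and 3% PEGDA and 5 in 2D. LINC01940, 8766 bp from the mesenchymal factor gene TWIST2, had 35, 40 and 11 counts in the gels, against 23 in 2D. LINC00634 had 10, 4 and 14 counts in the gels, against 18 in 2D, and LINC00987 had 13, 36 and 16 counts in the gels, against 50 in 2D. All of these calls rest on fewer than 100 counts in each library. Other members here with few counts may likewise have reached the sum through the library where they were high.

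Of 33 numbered LINC RNAs listed for a role known from other work, 13 were members. LINC00963, known for the passage of prostate cancer cells to androgen independence, was at 14.4, 14.0 and 14.8 CPM in the EPCaTs with no, 2% and 3% PEGDA and 10.4 CPM in 2D and was called in no comparison. LINC00920, a prostate cancer RNA under the control of ERG, was at 3.78, 5.79 and 4.46 CPM and at 3.63 CPM in 2D, also without a call. LINC00520, which in endothelial cells raises nitric oxide synthase, was at 24.3, 16.7 and 20.8 CPM in the gels, against 10.3 CPM in 2D, and was called higher in PF and PF+3%PEGDA. LINC01133, an epithelial RNA, was at 9.53, 6.24 and 9.95 CPM in the gels, against 19.2 CPM in 2D, called lower in PF and PF+2%PEGDA. LINC01116 was at 5.15, 8.11 and 5.70 CPM and at 14.6 CPM in 2D, called lower in PF and PF+3%PEGDA. LINC00662 was at 1.98, 1.35 and 2.93 CPM and at 4.45 CPM in 2D, called lower in PF and PF+2%PEGDA. LINC00467 and LINC00339 were not called in any comparison. LINC00261, LINC00673, LINC00941, LINC01559 and LINC01605 have been described. The listed RNAs were thus called in both directions.

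Many members were not called. Called in none of the 6 comparisons between libraries were 56 of the 153, and in 52 the highest and lowest library differed by less than 2-fold. The median ratio of highest to lowest library was 2.53 over the 150 members without a 0. These values were not taken over all genes tested, so they do not show whether the class was steadier or less steady than other genes. The flattest, named after their values were seen, were LINC02246 at 8.39, 8.43 and 8.85 CPM in the EPCaTs with no, 2% and 3% PEGDA and 8.70 CPM in 2D, and LINC00667 at 21.2, 21.0 and 18.7 CPM in the gels, against 20.9 CPM in 2D. By highest library, 50, 35 and 26 members peaked in the gels with no, 2% and 3% PEGDA, and 42 peaked in 2D. These are 32.7%, 22.9%, 16.99% and 27.5% of members, against 29.5%, 12.7%, 20.8% and 37.0% of all genes tested.

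Because some of these RNAs act on the adjacent gene, each was set beside its nearest protein-coding gene. For 108 members that gene was itself tested. The mean log2 ratio of the 3 EPCaTs to 2D had the same sign in RNA and neighbour in 52 of 108 pairs, and in 14 of the 35 pairs that overlap or lie within 5 kb. Pearson's r was 0.07 across the 108 pairs and -0.33 across the 35 near pairs, a description over pairs that share the same 4 libraries. Of the 31 members called higher in the PF EPCaT than in 2D that had a tested neighbour, the neighbour was called higher in 3, lower in 3 and not called in 25, beside 15.8% and 11.9% of all genes. Of the 17 called lower, the neighbour was lower in 2, higher in 5 and not called in 10. In the gel comparison of PF+3%PEGDA with PF, 20 members called lower had a tested neighbour, of which 1 was also lower, 0 were higher and 19 were not called.

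LINC00261 was higher in all 3 EPCaTs, but FOXA2, which encodes a pioneer factor of endoderm and lies 2356 bp away, was not. FOXA2 was at 18.6, 31.3 and 31.7 CPM in the EPCaTs with no, 2% and 3% PEGDA and 49.0 CPM in 2D, 2.63-fold lower in PF and not called in the other EPCaTs. Within the 3 gels both were lowest in PF. LINC00685 was higher in every EPCaT while GTPBP6, the mitochondrial GTPase gene that starts beside it, was at 18.2, 20.5 and 15.6 CPM in the gels, against 43.5 CPM in 2D and was called lower in all 3. LINC00857 was lower in every EPCaT while ANXA11, an annexin gene 1902 bp away, was at 626, 643 and 608 CPM in the gels, against 426 CPM in 2D, without a call. LINC02683 and SPON1, which encodes the matrix protein F-spondin, were both called higher in all 3 EPCaTs, with SPON1 at 11, 18 and 21 counts in the gels, against 1 in 2D. LINC00624 and BCL9 were both called higher in PF, with BCL9 at 99.0, 86.4 and 88.4 CPM in the gels, against 48.8 CPM in 2D. Of the 84 members with a known strand on both sides, 12 start within 2000 bp of their neighbour and run away from it, among them LINC00205, LINC00685, LINC00857, LINC00893 and LINC00894.

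**Figure D5:**
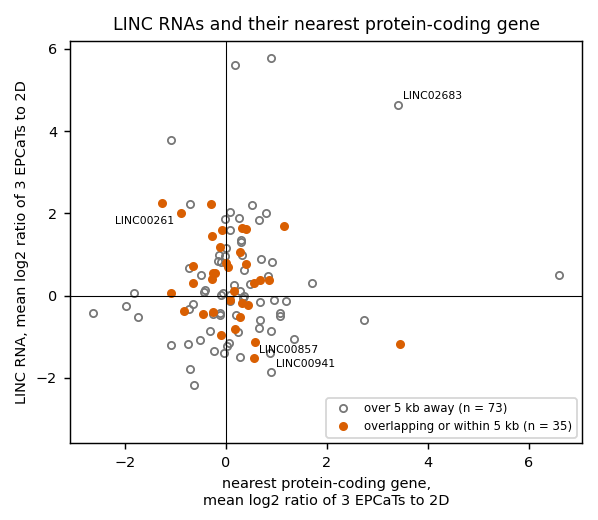
Mean log2 ratio of the 3 EPCaTs to 2D for 108 LINC RNAs (vertical axis) against that of the nearest protein-coding gene (horizontal axis), with pairs that overlap or lie within 5 kb filled. Pearson's r was 0.07 over all points and -0.33 over the filled ones, and the pair farthest to the right is LINC02315 with LRFN5, which had 0 counts in 2D and so depends on the prior count.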

How the data were processed

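The authors deposited 1 table of expected counts per gene for 4 libraries, made from TruSeq v2 poly-A libraries, which do not mark strand. Per the submitters' processing notes, FastQC, STAR and Partek were used with hg38; versions, annotation and counting method are not given in the sources used here. Between 18.2% and 19.9% of values in a library were not whole (tolerance 0.01), 25 members had such a value, and values were rounded.

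Libraries were scaled by TMM in edgeR 4.0.16 (R 4.3.3), with no test. Each log2 ratio used a prior count of 0.5 and an exact Clopper-Pearson 95% interval; calls needed 2-fold and an interval excluding 0, and a 0 was replaced by a floor of 3 counts. Intervals cover counting error only, since each group had 1 library, and a ratio to the floor leaves out the counting error of the other library. Reads carried no molecular identifiers. The calls were also run on simulated libraries with counting error alone and planted changes of known size. That simulation holds no variation between tissues or libraries, so it cannot show how often calls are false in these data. Other steps used scipy 1.17.1, pandas 2.3.3, numpy 2.4.6 and matplotlib 3.10.9 under Python 3.11.15.

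Positions and promoters are from RefSeq on GRCh38.p14, exons from GENCODE 29. Named members were the 12 most abundant, up to 12 called each way in all 3 EPCaTs, 6 or 3 each way between gels, those at 0, those at the threshold, and 13 of a role list of 33; members highest or lowest in 1 library, ordered with PEGDA or flattest were named after values were seen. Members and lists were chosen with earlier results of these data known. DESeq2 1.42.0 size factors, total counts, a 4-fold rule, a prior count of 2 and 3 other member sets were tried.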

Additional observations from a re-analysis of the deposited data

How the results depend on the processing

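Scaling by DESeq2 size factors left each count of members within 1.5 times its value. With total counts only, the median log2 ratio of the members became 0.42 for PF and 0.30 for PF+2%PEGDA against 2D, where the median of all genes moved to 0.19 and 0.12, and 8 members were called lower in order with PEGDA by the rule given above. That scaling put 68.8% of all calls between PF and 2D on the higher side, against 57.1% with TMM, and 71.2% against 65.1% among members. Under a 4-fold rule, members called higher and lower numbered 19 and 4 for PF against 2D, 12 and 3 for PF+2%PEGDA against 2D, 11 and 6 for PF+3%PEGDA against 2D, 3 and 9 comparing PF+3%PEGDA to PF, 3 and 5 comparing PF+2%PEGDA to PF, and 0 and 3 comparing PF+3%PEGDA to PF+2%PEGDA. In all 3 EPCaTs 6 were then called higher and 0 lower, 1 was called lower in order with PEGDA, and 4 were called higher and 1 lower in PF than in each other library. With all 355 LINC rows that had any count, the higher and lower calls were 72 and 37 for PF against 2D, 51 and 35 for PF+2%PEGDA against 2D, 17 and 46 comparing PF+3%PEGDA to PF, and 16 and 24 comparing PF+3%PEGDA to PF+2%PEGDA; 40 were lower for PF+3%PEGDA against 2D, 27 higher comparing PF+2%PEGDA to PF, 12 called lower in all 3 EPCaTs and 1 called higher in order with PEGDA. With the 75 members whose exons overlap no other gene, they were 23 and 10, 18 and 9, and 14 and 9 for the 3 EPCaTs against 2D in order of PEGDA, 5 and 15 comparing PF+3%PEGDA to PF, 8 and 12 comparing PF+2%PEGDA to PF, and 3 and 7 comparing PF+3%PEGDA to PF+2%PEGDA; 10 were called higher and 4 lower in all 3 EPCaTs, 3 were called lower in order with PEGDA, and the median for PF+2%PEGDA against 2D was 0.41. With the 167 LINC rows at 1 CPM or more in a library, 11 were called lower than 2D in all 3 EPCaTs and 1 higher in order with PEGDA, and the medians were 0.066 for PF against 2D, 0.063 for PF+2%PEGDA against 2D and -0.12 comparing PF+2%PEGDA to PF. These settings change how many members are counted, and for the medians the cause was not tested. No share of all genes was taken under the 4-fold rule or beside the other member sets. These counts are therefore only a description and no result about the class. Requiring only 2 of the EPCaTs, with each left out in turn, an alternative chosen after seeing the data, gave 19 to 22 higher and 10 to 12 lower. Over the 56 named members, 408 called values were recomputed under other scalings and a prior count of 2; 9 were no longer called and 0 reversed. No paired analysis was possible because each group had 1 library. At this depth the counting intervals of members near 40 counts span several fold.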
